A study of Mus musculus with 8 samples.

Results

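The 4 homeobox genes Irx1, Irx2, Hhex and Pbx3 were followed through the endocrine cells of mouse islets. They were chosen by name, as transcription factors associated with alpha or delta cells, and all 4 were among the 17362 genes of the table. The values came from single nucleus RNA-seq of cultured islets isolated from wild type (WT) C57BL/6J mice and from mice carrying a whole-body Med14 S983A knock-in (called mutant below), in which a serine of the Mediator scaffold subunit is replaced by alanine. A point mutation need not alter the level of its own transcript, so the values hold no check of genotype. The islets received no drug (CON), forskolin (FSK), a direct activator of adenylyl cyclase, or the GLP-1 receptor agonist Exendin-4 (Ex-4) at 10 nM for 16 h. Neither the FSK dose used on islets nor the age of the mice was given in the sources used here. Each of the 8 sublibraries held nuclei of all 6 conditions, and the table gave 1 pooled value for each condition in each of 9 cell types. There was therefore 1 value per condition and cell type and no replicate, no test between conditions could be run, and condition cannot be told apart from islet preparation or barcode well. A lower pooled value also does not tell fewer nuclei with the transcript apart from less transcript per nucleus.

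Irx1 and Irx2 belong to the Iroquois family and Pbx3 to the PBC family of TALE homeobox factors, whose homeodomain carries an extended loop. Iroquois genes lie in clusters and pattern many embryonic tissues, and Irx1 and Irx2 are known in the islet as alpha cell genes. Hhex, a homeobox factor first described in blood cells and also active in endothelium and liver, is required for delta cells to form and to produce somatostatin. PBC proteins bind DNA together with Hox proteins or with TALE partners of the Meis and Pknox families, and are present in many cell types. In islets, alpha cells make glucagon (Gcg), delta cells somatostatin (Sst) and PP cells pancreatic polypeptide (Ppy), and Ex-4 and FSK both raise cAMP, which acts on genes through the factor CREB.

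In the mouse genome (GRCm39, the build of the files) Irx1 lies at chr13:72106040-72111848 on the minus strand and Irx2 at chr13:72776906-72782317 on the plus strand. The 665.1 kb between them hold 10 annotated genes, of which 0 are protein-coding. Hhex lies at chr19:37423258-37429179 on the plus strand. These 3 genes are short, with 5.809 kb and 4 exons for Irx1, 5.412 kb and 5 exons for Irx2, and 5.922 kb and 4 exons for Hhex. Pbx3, at chr2:34061469-34263154 on the minus strand, spans 201.7 kb with 9 exons. Long noncoding genes on the opposite strand overlap 2 members, Gm20554 by 843 bp at the start of Irx2 and C79798 by 16670 bp within Pbx3. The strand setting of the counting was not given in the sources used here, so reads from the shared stretches may have been counted for either gene.

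The 250 bases upstream of the start of each gene's canonical transcript are shown because both treatments act through cAMP and because the windows of Irx1 and Irx2 belong to the pair of members with the most alike levels. They were searched on both strands for the cAMP response element TGACGTCA and for its core TGACG, which is contained in the full element. For Pbx3 this start lies inside the outer bound of the gene, so its window does too. Capitals mark the core.
Irx1, chr13:72111849-72112098, minus strand: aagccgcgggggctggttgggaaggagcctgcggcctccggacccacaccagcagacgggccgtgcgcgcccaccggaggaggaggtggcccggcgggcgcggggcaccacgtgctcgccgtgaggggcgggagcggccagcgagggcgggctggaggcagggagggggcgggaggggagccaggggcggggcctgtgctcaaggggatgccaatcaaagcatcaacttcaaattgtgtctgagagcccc
Irx2, chr13:72776656-72776905, plus strand: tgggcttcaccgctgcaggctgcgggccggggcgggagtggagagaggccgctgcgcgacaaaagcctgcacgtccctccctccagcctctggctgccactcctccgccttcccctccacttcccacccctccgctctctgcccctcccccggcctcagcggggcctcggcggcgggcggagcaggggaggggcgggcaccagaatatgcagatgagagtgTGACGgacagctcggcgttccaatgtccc
Hhex, chr19:37423008-37423257, plus strand: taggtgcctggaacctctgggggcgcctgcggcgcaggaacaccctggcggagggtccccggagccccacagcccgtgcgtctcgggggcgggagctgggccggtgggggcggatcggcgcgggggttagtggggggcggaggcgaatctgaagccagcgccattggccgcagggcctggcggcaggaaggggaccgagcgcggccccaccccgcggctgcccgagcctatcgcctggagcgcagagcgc
Pbx3, chr2:34262773-34263022, minus strand: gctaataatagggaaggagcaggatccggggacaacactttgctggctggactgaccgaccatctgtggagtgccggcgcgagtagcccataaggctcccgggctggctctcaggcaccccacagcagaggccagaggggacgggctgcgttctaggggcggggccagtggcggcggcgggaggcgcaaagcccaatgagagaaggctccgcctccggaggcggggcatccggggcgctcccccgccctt
The full element was in none of these windows, and 1.70% (369 of 21770) of all windows of this length held it. The core occurred once, 29 bases before the start of Irx2, and 18.03% (3926) of all windows held it. The windows were 68.4% to 76.4% GC, against a median of 53.2% over all genes. A match of letters describes the sequence and is not evidence of binding, and a missing match says only that these letters are not in this window.

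Levels are given as counts per 10000 counts of the pooled column (CP10K), from whole counts recovered from the deposited values, with 95% intervals of the counts (exact Poisson for levels, exact conditional for ratios). The intervals cover counting error only. Endocrine columns held 1915006 to 3094377 counts in beta cells, 269394 to 810127 in alpha cells, 362410 to 631433 in delta cells and 38625 to 127727 in PP cells, so the beta values are the firmest and the PP values the weakest. The defining hormone genes were where the labels place them. Gcg was 59.7 CP10K over the pooled alpha columns and 0.763 over the beta columns, Sst was 3.94 in delta and at most 0.150 in the other endocrine types, and Ppy ran from 7.12 to 12.2 over the PP columns and reached at most 1.05 in the others. The summed level of 6 beta cell genes ran from 42.2 to 62.0 in beta columns and from 12.3 to 33.5 in alpha columns. Such a sum can rest mostly on a single gene that both cell types express. It therefore does not show that the 6 genes as a set were present in alpha columns. Of the 4 delta markers, Lepr was listed at 0 in every delta column. Since the authors named cell types from clusters of the same nuclei, the differences between types below are descriptions.

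**Figure D1:**
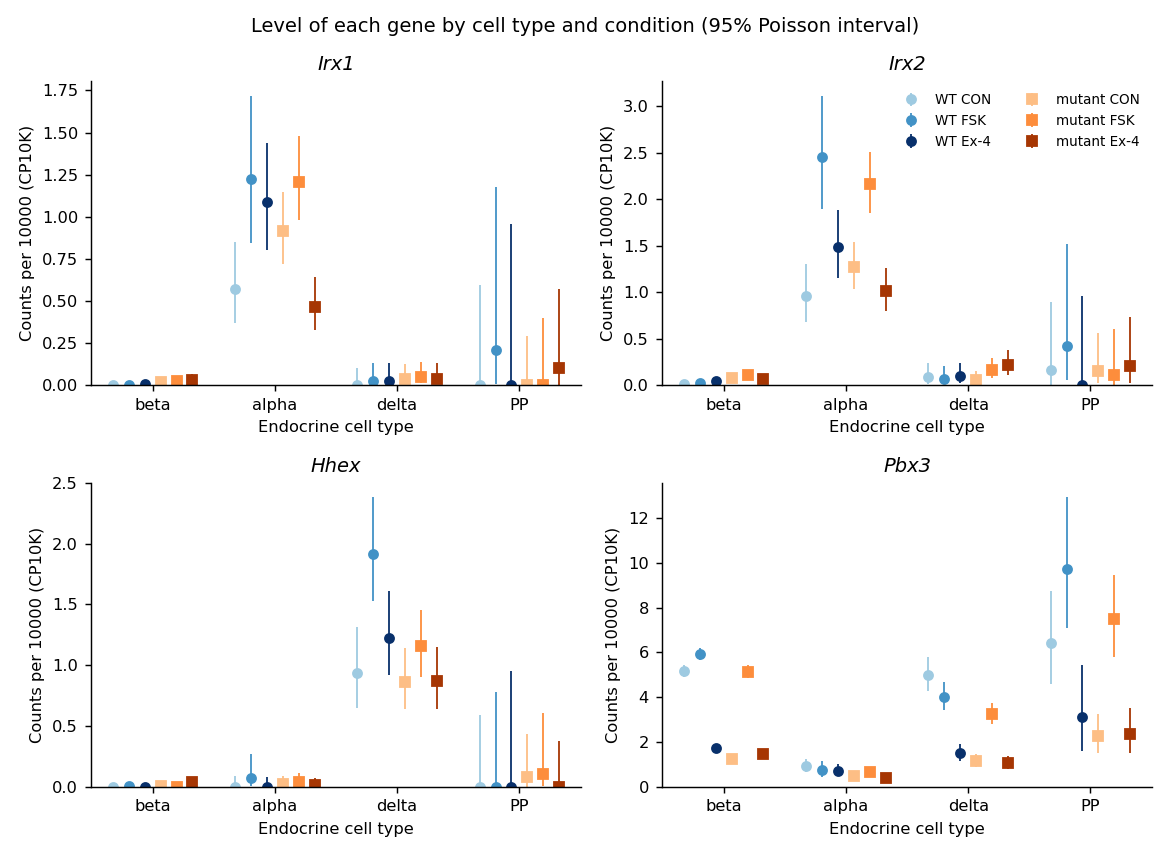
Level of each gene in counts per 10000 (vertical axis) in beta, alpha, delta and PP cell columns (horizontal axis), with 1 point per condition (circles WT, squares Med14 S983A mutant) and bars for the 95% Poisson interval of the count. Irx1 and Irx2 stand high in alpha cells alone among these types, Hhex in delta cells alone, and Pbx3 in beta, delta and PP cells, where mutant CON and the Ex-4 columns of both genotypes are the 3 low conditions.

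Among endocrine cells, Irx1 and Irx2 were alpha cell genes in all 6 conditions. Over the pooled conditions Irx1 was 0.884 CP10K (0.789 to 0.988) in alpha cells, 0.0429 in PP, 0.0303 in delta and 0.0118 in beta cells, and 91.5% of its endocrine counts were alpha counts, where alpha columns held 15.9% of all endocrine counts. The next endocrine level, in PP cells, rested on 2 counts and was 20.6 times lower (5.66 to 171), and PP and delta levels were not separable (ratio 1.42, 0.149 to 6.85). Irx2 was 1.49 CP10K (1.37 to 1.62) in alpha cells, 0.172 in PP, 0.118 in delta and 0.0486 in beta cells, with 81.8% of its endocrine counts in alpha cells. Its PP and delta levels were again not separable (1.46, 0.584 to 3.20), while its delta level was 2.42 times (1.57 to 3.67) its beta level. Outside the endocrine cells, Irx1 held 2 counts in endothelial cells (0.0287 CP10K) and 2 in neurons (0.112), and 0 in macrophage, muscle and ductal columns. Irx2 held 3 counts in endothelial cells (0.0431) and 4 in macrophages (0.219), and 0 in muscle, neuron and ductal columns. Of the macrophage counts, 3 were in mutant Ex-4, at 2.02 CP10K (0.415 to 5.89), an interval that holds the alpha level of that condition.

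To determine whether the treatments or the Med14 mutation moved the alpha cell factors, their levels were compared condition by condition. In alpha cells Irx1 stood at 0.572 CP10K in WT CON (24 counts), 1.22 in WT FSK, 1.09 in WT Ex-4, 0.913 in mutant CON, 1.21 in mutant FSK and 0.466 in mutant Ex-4. Irx2 stood at 0.954 CP10K in WT CON (40 counts), 2.45 in WT FSK, 1.48 in WT Ex-4, 1.27 in mutant CON, 2.16 in mutant FSK and 1.01 in mutant Ex-4. FSK gave the highest level of both genes within each genotype, and the lowest levels were WT CON and mutant Ex-4.

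After FSK, Irx1 was 2.14-fold (1.23 to 3.78) and Irx2 2.57-fold (1.71 to 3.90) the untreated level in WT alpha cells. A gene is counted as higher or lower here when its ratio is past 1.5-fold and the pair of columns holds at least 20 counts. By that rule 11.7% of all tested genes were higher in this comparison, and both Iroquois genes were among them. In mutant alpha cells the FSK ratio was 1.70 (1.32 to 2.20) for Irx2 and 1.32 (0.966 to 1.82) for Irx1, so that only Irx2 passed 1.5-fold, where 23.9% of tested genes were higher. The levels after FSK were not separable between genotypes: mutant was 0.987 (0.658 to 1.51) of WT for Irx1 and 0.883 (0.661 to 1.19) for Irx2. With the trend of the ratios over gene length removed, Irx1 also passed 1.5-fold after FSK in the mutant. On that scale both genes were past 1.5-fold lower in mutant FSK than in WT FSK.

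After Ex-4, Irx1 was 1.90-fold (1.14 to 3.23) the untreated level in WT and 0.511-fold (0.334 to 0.767) in mutant alpha cells. Irx2 was 1.56-fold (1.04 to 2.36) in WT and 0.793-fold (0.585 to 1.07) in the mutant. In WT 21.8% of tested genes were higher, and in the mutant 10.9% were lower. The WT ratio followed gene length across the genome: the shortest twentieth of tested genes had a median log2 ratio of 0.89. With the length trend removed, the WT ratio was 1.03 for Irx1 and 0.832 for Irx2, so that both calls ended and Irx2 changed direction, while the mutant ratio of Irx1 remained past 1.5-fold at 0.566. Between genotypes, Irx1 after Ex-4 was 0.430-fold (0.273 to 0.672) and Irx2 0.679-fold (0.485 to 0.954) the WT level, where 15.6% of tested genes were past 1.5-fold lower. In untreated islets Irx1 was 1.60-fold (0.995 to 2.65) the WT level, an interval that includes 1, where 24% of tested genes were higher, and its ratio was 0.821 with the length trend removed.

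**Figure D2:**
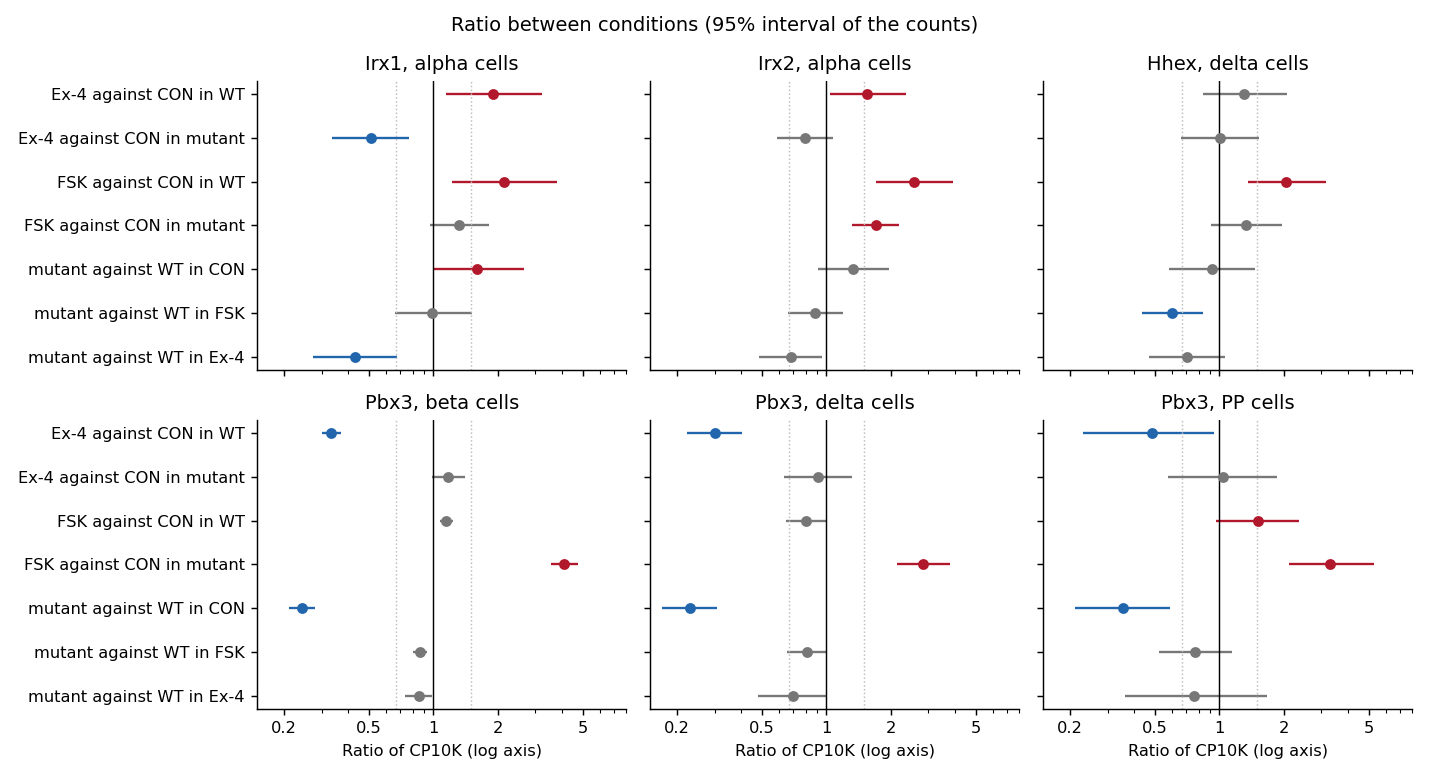
Ratio of CP10K between conditions (horizontal log axis) for each of the 7 comparisons (vertical axis) in the cell type named above each panel, where points are ratios, bars the 95% interval of the counts, red and blue mark ratios past 1.5-fold (dotted lines) and mutant means Med14 S983A. Irx1 in alpha cells lies above 1 after Ex-4 in WT (1.90) and below 1 in the mutant (0.511), whereas Pbx3 in beta cells lies at 0.333 after Ex-4 in WT and at 1.17 in the mutant.

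The proportion of the pair did not separate between conditions beyond counting error. Per length, Irx1 was below Irx2 in each of the 6 alpha columns, at 0.559 of its level in WT CON, 0.466 in WT FSK, 0.681 in WT Ex-4, 0.669 in mutant CON, 0.521 in mutant FSK and 0.431 in mutant Ex-4. The intervals of these ratios all overlapped one another. A long noncoding neighbour of Irx1 on the same strand, Gm40999, was also an alpha cell transcript, with 90.2% of its endocrine counts there. It stood at 1.03 CP10K in WT CON, 1.93 in WT FSK, 0.421 in WT Ex-4, 0.272 in mutant CON, 1.84 in mutant FSK and 0.189 in mutant Ex-4 in alpha cells. Like Irx1 it was highest in the FSK columns, but WT Ex-4 and mutant CON, where Irx1 was 1.09 and 0.913, were among its 3 low columns. Gm20554, which overlaps Irx2, was 0.190 CP10K over the pooled alpha and 0.236 over the pooled PP columns and was listed at 0 in WT Ex-4 in all cell types. Over the 24 endocrine columns, the gene most like Irx1 among 9248 ranked genes was Irx2 (Pearson r = 0.985 of the deposited log values), followed by Gcg (0.908) and Wnk3 (0.907), a kinase of the WNK family. For Irx2 the same genes followed Irx1, Gcg at 0.927 and Wnk3 at 0.921. These correlations describe columns that share conditions and cell types and mostly reflect the step between alpha and other columns. With Spearman's correlation, 0 of the 3 genes remained for Irx1 and 1 of 3 for Irx2.

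Low Irx2 counts were also present in beta columns, more of them in the mutant. In beta cells Irx2 stood at 0.0133 CP10K in WT CON (4 counts), 0.0194 in WT FSK (6 counts) and 0.0436 in WT Ex-4 (13 counts), and at 0.0727 in mutant CON (14 counts), 0.109 in mutant FSK (25 counts) and 0.0627 in mutant Ex-4 (12 counts). The 3 mutant values were all above the 3 WT values. After FSK the mutant level was 5.60 times (2.24 to 16.7) the WT level, where 21.0% of tested genes were higher. After Ex-4 the ratio was 1.44 (0.599 to 3.42), and the untreated pair, with 18 counts, was under the minimum. Irx1 in beta cells held 0, 1 and 2 counts in WT CON, FSK and Ex-4, and for the mutant 3, 6 and 6 counts. The 0 in WT CON allows a level of up to 0.00996 CP10K by the limit of 3 counts used for a 0. Its exact 95% Poisson interval reached 0.01225.

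Gcg, the defining alpha cell transcript, was arranged in the same way in the beta columns. As a share of its alpha cell level, Irx2 in beta columns was 1.39%, 0.791% and 2.94% in WT CON, FSK and Ex-4 and 5.72%, 5.02% and 6.21% in the mutant. For Gcg these shares were 0.437%, 0.228% and 1.06% in the WT columns and 3.55%, 1.65% and 4.12% for the mutant. Irx2 had the larger share in each of the 6 conditions, on 4 to 25 beta counts. In WT CON, mutant CON and mutant Ex-4 the interval of its share included the Gcg share. In delta columns Irx2 held 3 to 12 counts, with shares from 2.86% to 21.5%, and Gcg shares from 1.12% to 5.56%. The summed level of the 5 alpha markers ran from 1.08 to 4.32 CP10K over the beta columns and from 35.8 to 121 over the alpha columns. The other alpha markers did not separate the genotypes in this way: Ttr, a carrier of thyroid hormone, was 28.4% to 68.3% of its alpha level in beta columns, Gc 10.8% to 29.9%, Slc38a5 had at most 1 count in any beta column, and Fap was listed at 0 in both Ex-4 conditions. Hormone genes of other cell types were also higher in the mutant beta column at each treatment. Ppy ran from 0.204 to 0.312 CP10K there, against a WT range of 0.0873 to 0.1095. Sst ran from 0.0521 to 0.193 CP10K, against a WT range of 0.0129 to 0.0671. The delta marker Rbp4 had no such order, and Ghsr and Lepr were at 0 in beta columns. Higher mutant values were thus not particular to alpha cell genes. Column totals also differed between genotypes. In CON, the mutant columns held 810127 alpha, 566358 delta and 127727 PP counts, against 419293, 362410 and 62210 in WT. Beta columns held 1925445 counts in mutant CON and 3012428 in WT CON. The FSK and Ex-4 columns had the same order. The paper reports fewer beta and more alpha and delta cells in mutant islets. The part of RNA from other nuclei, or of this cell mix, in any of these counts was not tested.

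**Figure D3:**
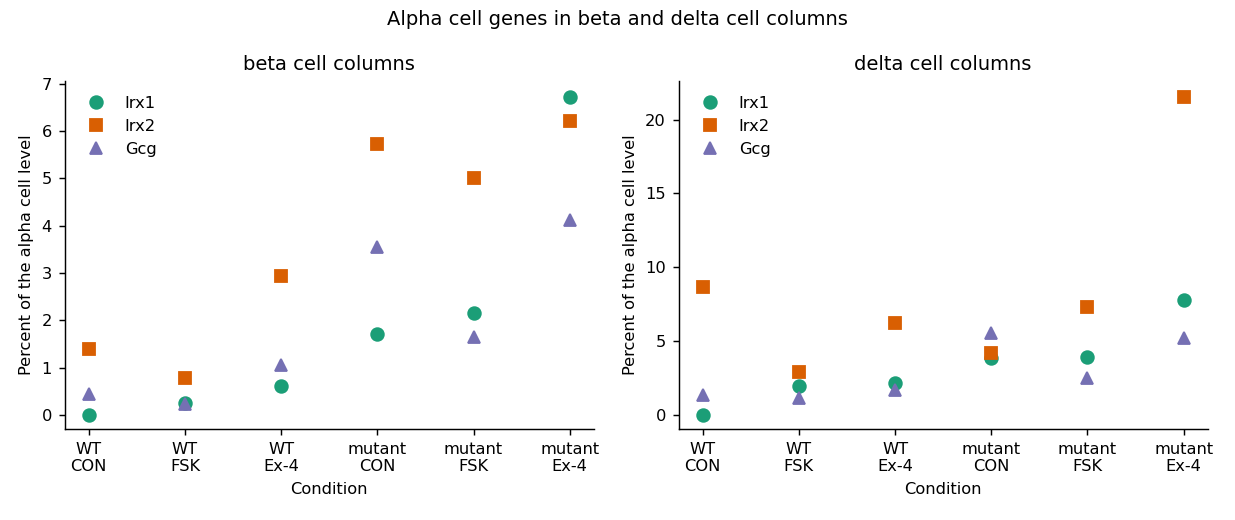
Level of Irx1, Irx2 and Gcg in beta (left) and delta (right) cell columns as a percent of the alpha cell level of the same condition (vertical axis), for the 6 conditions (horizontal axis, mutant is Med14 S983A), with 1 point per gene and condition and no error drawn. In beta columns Irx2 runs from 0.791% to 2.94% in WT and from 5.02% to 6.21% in the mutant, above Gcg in every condition. In WT CON, mutant CON and mutant Ex-4 the counting interval of Irx2 includes the Gcg share.

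Hhex was a delta cell gene in all 6 conditions. It was 1.14 CP10K (1.02 to 1.27) over the pooled delta columns, 0.0429 in PP, 0.0227 in alpha and 0.00591 in beta cells, and 94.7% of its endocrine counts were delta counts, where delta columns held 13.4% of all endocrine counts. The ratio to the PP level was 26.6 (7.30 to 220) on 2 PP counts. Alpha and PP levels were not separable, and alpha was 3.84 times (1.29 to 11.2) beta. In non-endocrine columns Hhex held 7 counts in endothelial cells (0.101 CP10K) and 5 in macrophages (0.273 CP10K), both below the delta level over the pooled conditions. Muscle and ductal columns held 1 count each, and the ductal interval (0.00492 to 1.08) overlapped the delta interval. So did the macrophage intervals after FSK with those of delta cells, at 0.622 (0.128 to 1.82) in WT and 0.685 (0.0173 to 3.82) in the mutant.

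In delta cells Hhex stood at 0.938 CP10K in WT CON (34 counts), 1.92 in WT FSK, 1.23 in WT Ex-4, 0.865 in mutant CON, 1.16 in mutant FSK and 0.869 in mutant Ex-4. WT FSK was the highest column, and WT CON, mutant CON and mutant Ex-4 lay close together at the low end. FSK gave a ratio of 2.04 (1.36 to 3.15) in WT, where 18.2% of tested genes were past 1.5-fold higher, and of 1.34 (0.918 to 1.96) in the mutant, and mutant FSK was 0.603 (0.434 to 0.837) of WT FSK, where 5.25% of tested genes were past 1.5-fold lower. Ex-4 gave 1.31 (0.835 to 2.08) in WT and 1.00 (0.660 to 1.53) in the mutant, neither past 1.5-fold. The untreated mutant was 0.922 (0.583 to 1.47) of WT.

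Ratios in delta cells also followed gene length, and the shift at the short end is given for 2 comparisons. The shortest twentieth of tested genes had a median log2 ratio of 0.92 after Ex-4 in WT and of 1.13 in the untreated mutant against WT, where Hhex had 0.39 and -0.12. With the length trend removed Hhex was therefore 0.626 after Ex-4 in WT and 0.387 in the untreated mutant, both then past 1.5-fold lower. Its FSK ratio was 2.61 in WT and 2.31 in the mutant on that scale, and mutant FSK was 0.364 of WT FSK. Before removal of the trend these ratios were 2.04, 1.34 and 0.603, so they shifted with length too.

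Sst was also highest in the FSK columns. It stood at 2.87 CP10K in WT CON, 6.10 in WT FSK, 3.27 in WT Ex-4, 2.95 in mutant CON, 5.42 in mutant FSK and 2.84 in mutant Ex-4 in delta cells. Sst was the gene most like Hhex over the 24 columns (r = 0.984), followed by Cacna1h (0.980), a T-type calcium channel subunit, and Prdm16 (0.979), a zinc finger regulator of transcription. With Spearman's correlation 0 of these 3 remained. Hhex counts in beta cells were 0, 1 and 0 in WT and 1, 0 and 7 in mutant CON, FSK and Ex-4. The 7 counts of mutant Ex-4 came to 4.21% of the delta level, beside 6.80% for Sst in that column, and the part of RNA from other nuclei was not tested.

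Pbx3 did not follow the label under which it was chosen. It was highest in PP cells (4.70 CP10K, 4.10 to 5.36) and beta cells (3.68, 3.58 to 3.78), lower in delta cells (2.51, 2.33 to 2.70) and lowest in alpha cells (0.601, 0.522 to 0.687), and 82.7% of its endocrine counts were beta counts, where beta columns held 68.6% of all endocrine counts. The PP level was 1.28 times (1.11 to 1.46) the beta level, the beta level 1.47 times (1.36 to 1.59) the delta level and the delta level 4.18 times (3.58 to 4.89) the alpha level. Pooling weights the conditions differently in each cell type. Within single conditions beta and delta were not separable in WT CON (1.03, 0.886 to 1.21), WT Ex-4 (1.14, 0.882 to 1.504) and mutant CON (1.09, 0.826 to 1.46), and the beta level was 1.47, 1.58 and 1.398 times the delta level in WT FSK, mutant FSK and mutant Ex-4, with intervals above 1. The PP to beta ratio ran from 1.24 in WT CON to 1.81 in mutant CON, and its interval included 1 in WT CON, WT Ex-4 and mutant Ex-4. The delta to alpha ratio was above 1 in each condition, from 2.12 to 5.51. Within single conditions the beta to alpha ratio ran from 2.43 in WT Ex-4 to 7.98 in WT FSK. Non-endocrine columns held Pbx3 too, at 2.49 CP10K in endothelial, 2.18 in muscle, 1.20 in macrophage, 0.670 in neuron and 3.50 in ductal cells, so that alpha cells had the lowest level of the 9 types. The neuron interval (0.346 to 1.17) included the alpha value. Per length its level was below those of the short members in their own cell types, at 0.0183 CP10K per kb in beta cells against 0.152 for Irx1 and 0.275 for Irx2 in alpha cells and 0.193 for Hhex in delta cells.

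In beta cells Pbx3 stood at 5.17 CP10K in WT CON, 5.93 in WT FSK, 1.72 in WT Ex-4, 1.25 in mutant CON, 5.12 in mutant FSK and 1.47 in mutant Ex-4, on 241 to 1834 counts. In delta cells the values were 4.99, 4.02, 1.51, 1.15, 3.25 and 1.05 CP10K in the same order of conditions, and in PP cells 6.43, 9.70, 3.11, 2.27, 7.47 and 2.35. In each of these 3 cell types the WT CON, WT FSK and mutant FSK columns were all above mutant CON and the Ex-4 columns of both genotypes. In alpha cells the values were 0.906, 0.742, 0.709, 0.481, 0.649 and 0.403 CP10K, on 20 to 51 counts, and only the intervals of WT CON and mutant Ex-4 lay apart.

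To determine how the response to Ex-4 compared between genotypes, Pbx3 was set against its own untreated level. After Ex-4 in WT it was 0.333-fold (0.301 to 0.368) in beta, 0.301-fold (0.223 to 0.402) in delta and 0.483-fold (0.231 to 0.940) in PP cells, where 11.8%, 17.4% and 25.6% of tested genes were past 1.5-fold lower. In the mutant the Ex-4 ratio was 1.17 (0.983 to 1.398) in beta, 0.915 (0.631 to 1.32) in delta and 1.04 (0.572 to 1.85) in PP cells. Only the beta interval left out a difference of 1.5-fold in either direction. The untreated mutant stood at 0.242 (0.211 to 0.278) of WT in beta, 0.230 (0.170 to 0.307) in delta and 0.353 (0.211 to 0.584) in PP cells, where 21.8%, 24.3% and 28.8% of tested genes were lower. The 2 comparisons, WT Ex-4 and untreated mutant, share the WT CON columns.

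In WT, the level of Pbx3 after FSK was 1.15 (1.07 to 1.23) of the untreated level in beta and 0.806 (0.650 to 0.998) in delta cells. In PP cells it was 1.51 (0.966 to 2.36), just past 1.5-fold, where 19.2% of tested genes were higher. In the mutant, FSK gave 4.09 (3.56 to 4.72) in beta, 2.83 (2.13 to 3.80) in delta and 3.29 (2.11 to 5.27) in PP cells, where 21.9%, 27.8% and 26.4% of tested genes were past 1.5-fold higher. Mutant FSK then lay at 0.864 (0.803 to 0.930) of WT FSK in beta cells and 0.807 (0.656 to 0.994) in delta cells. In alpha cells Ex-4 gave 0.782 (0.473 to 1.29) in WT and 0.838 (0.508 to 1.37) in the mutant, and the mutant was 0.531 (0.331 to 0.853) of WT in CON and 0.569 (0.337 to 0.959) in Ex-4, where 26.2% and 15.6% of tested genes were lower. Alpha genes of 161 to 252 kb, near the length of Pbx3, had a median log2 ratio of -0.70 in the first of these comparisons and -0.19 in the second, beside -0.91 and -0.81 for Pbx3. With the length trend removed the ratios were 0.849, no longer past 1.5-fold, and 0.654.

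The share of certain RNAs and the length of genes both moved with Pbx3. The ribosomal RNA linked genes were a list fixed by name that included protein-coding genes, among them Cdk8, Cmss1 and Lars2. The paper reports Cdk8 as induced in the mutant, and Cmss1 and Lars2 as induced by Ex-4 in beta cells. The share is therefore not a measure of ribosomal and mitochondrial RNA alone. The share of counts from ribosomal RNA linked and mitochondrial genes in beta cells was 3.10% in WT FSK, 3.95% in WT CON and 3.06% in mutant FSK, and 10.3% in WT Ex-4, 16.3% in mutant Ex-4 and 13.2% in mutant CON. Delta and PP cells had the same 3 low and 3 high columns, and so did alpha cells, at 4.55% to 5.81% against 14.02% to 19.4%. Leaving these genes out of the totals kept all 53 tested ratios of the members within their intervals and 22 of the 23 calls, ended that of Pbx3 in WT PP cells after FSK and added 1, Irx2 in mutant against WT beta cells after Ex-4. Gene length moved with it as well: genes of 161 to 252 kb, near the length of Pbx3, had median log2 ratios in beta cells of -0.44 after Ex-4 in WT, -0.62 in the untreated mutant and 0.59 after FSK in the mutant, where Pbx3 had -1.59, -2.05 and 2.03. In delta cells the first 2 of those medians were -0.40 and -0.64, and Pbx3 had -1.73 and -2.12. With the length trend removed the Pbx3 ratios in beta cells were 0.448, 0.365 and 2.79 and in delta cells 0.399, 0.350 and 2.08, all still past 1.5-fold. The part of RNA quality in the Pbx3 values was not tested.

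**Figure D4:**
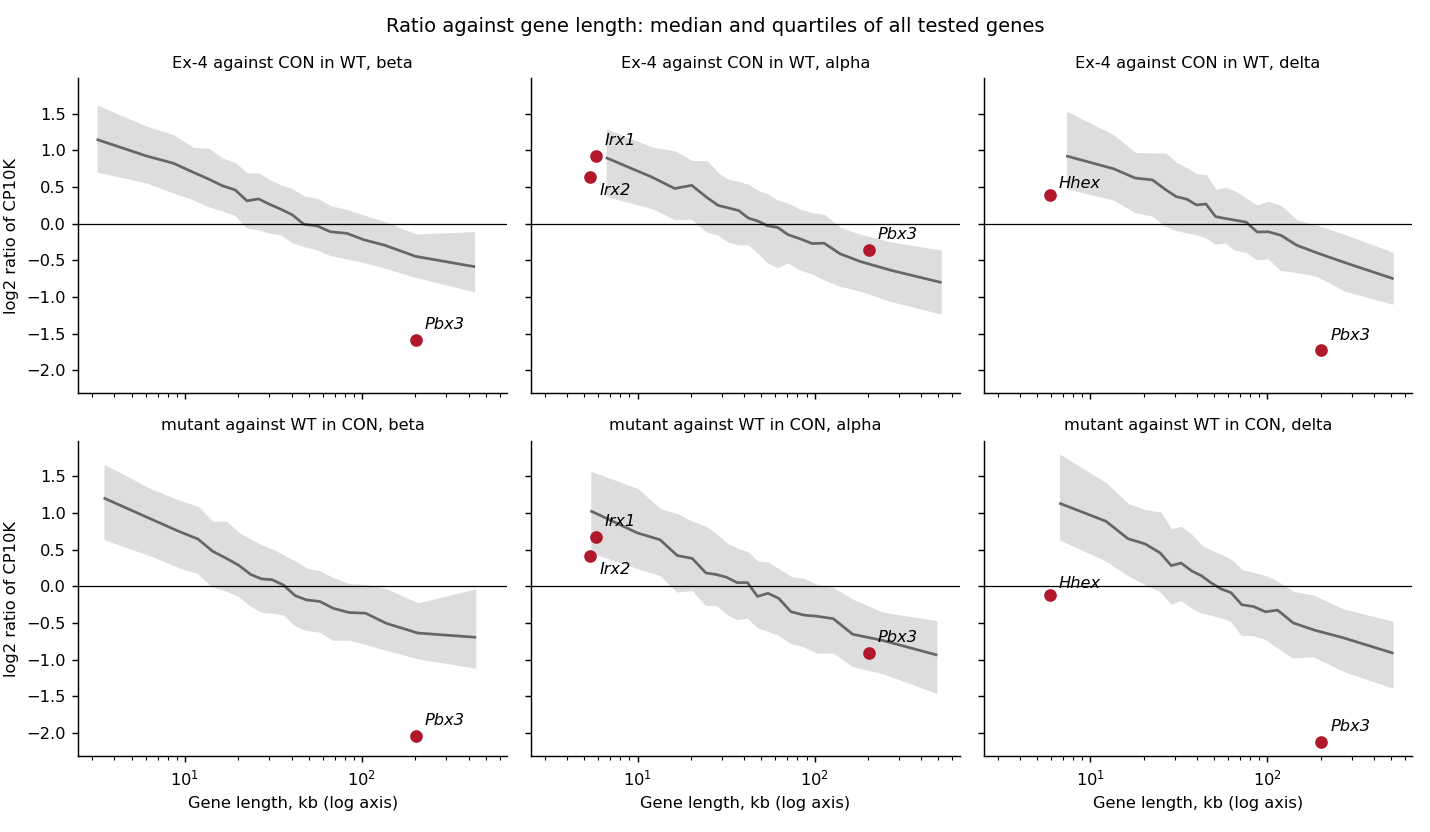
Log2 ratio of CP10K (vertical axis) against gene length (horizontal log axis) for Ex-4 against CON in WT (top) and the Med14 S983A mutant against WT in CON (bottom) in beta, alpha and delta cells, where the line is the median and the band the quartiles of all tested genes in 20 length bins and red points are the members with enough counts. Pbx3 lies below the band in beta and delta cells and inside it in alpha cells, Irx1 and Irx2 lie beside the short end of the band in alpha cells, and Hhex lies below that end in delta cells.

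Pbx3 was set beside the other TALE genes. Of 14 others, 10 were analysed; Irx3, Irx4, Irx5 and Irx6 were not analysed here. In beta cells after Ex-4 in WT, 8 were tested, 2 were past 1.5-fold higher (Pbx2 and Meis3) and 4 lower (Mkx, Meis1, Meis2 and Pknox2), where 30.8% of all tested genes were higher and 11.8% lower, with a median log2 ratio of -0.31 against 0.21 over all tested genes. In the untreated mutant, 2 of 8 were higher (Pbx2 and Meis3) and 4 lower (Pbx4, Meis1, Meis2 and Pknox2), where the shares over all tested genes were 27.3% and 21.8%, with a median of -0.45 against 0.04. After FSK in the mutant 3 of 8 were higher and 2 lower, beside 21.9% and 33.2% of all tested genes, with a median of 0.08 against -0.16. In delta cells after Ex-4 in WT, 1 of 6 was higher and 2 were lower, beside 25.9% and 17.4% of all tested genes, with a median of -0.47 against 0.10. In alpha cells 1 of 5 was higher and 3 were lower, beside 21.8% and 22.9%, with a median of -0.62 against -0.0032.

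Meis2, a DNA binding partner of PBC proteins, stood at 11.1 CP10K in WT CON, 11.4 in WT FSK, 6.80 in WT Ex-4, 6.69 in mutant CON, 12.4 in mutant FSK and 7.003 in mutant Ex-4 in beta cells. Meis2 spans 203.3 kb, near the length of Pbx3. Its log2 ratios in beta cells were -0.70 after Ex-4 in WT, -0.72 in the untreated mutant and 0.89 after FSK in the mutant. Genes of 161 to 252 kb had medians of -0.44, -0.62 and 0.59 in the same comparisons. The conditions of Meis2 fell in the same high and low columns as those of Pbx3. Pbx2 and Meis3, both short genes (6.136 and 11.43 kb), had the opposite arrangement, at 0.143, 0.0743, 0.356, 0.301, 0.0781 and 0.444 CP10K for Pbx2 in the same order of conditions. After Ex-4 in WT beta cells, the lowest ratio of the list was that of Meis1 (0.519, 0.463 to 0.581) and the highest that of Pbx2 (2.49, 1.73 to 3.64), so that Pbx3 lay below these TALE genes. In alpha cells, where Pbx3 was low, Mkx had the lowest ratio of the list (0.163, 0.0614 to 0.367).

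**Figure D5:**
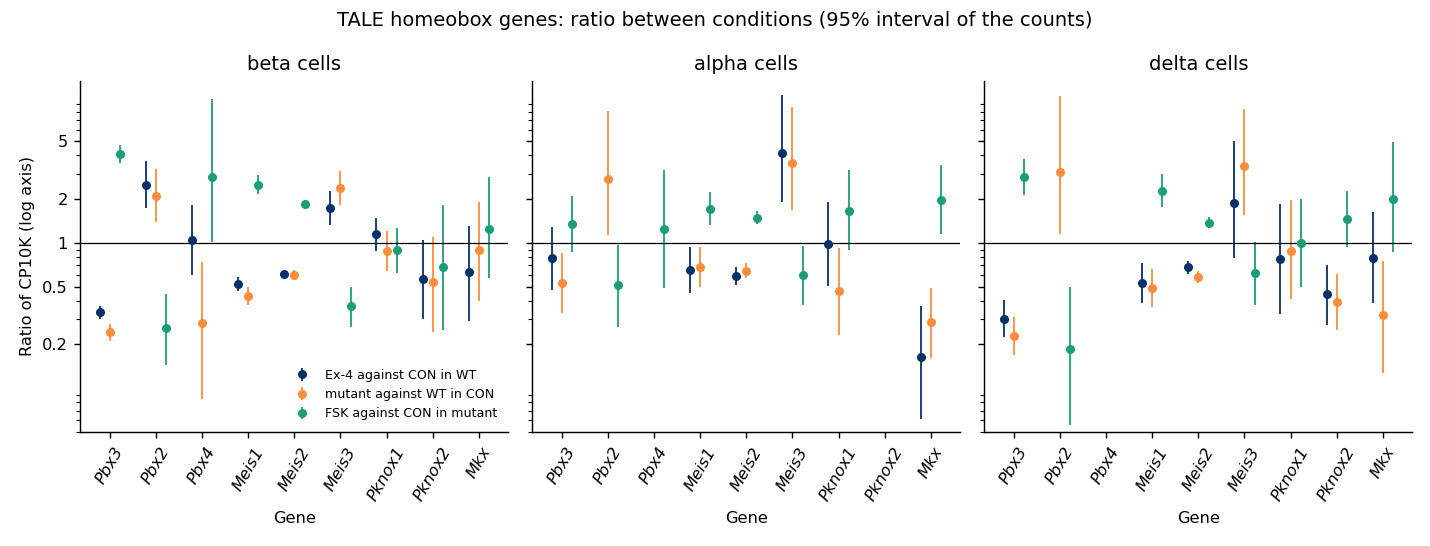
Ratio of CP10K (vertical log axis) of Pbx3 and of 8 other TALE homeobox genes (horizontal axis) in beta, alpha and delta cells for 3 comparisons, with bars for the 95% interval of the counts, genes without enough counts left out and mutant meaning Med14 S983A. In beta and delta cells Pbx3, Meis1 and Meis2 are below 1 after Ex-4 in WT and in the untreated mutant and above 1 after FSK in the mutant, while Pbx2 and Meis3 in beta cells show the opposite.

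Of 16 other transcription factors known from alpha or delta cells, 15 were analysed and Foxa1 was not analysed here. In alpha cells after Ex-4 in WT 13 were tested, 3 were past 1.5-fold higher and 5 lower, beside 21.8% and 22.9% of all tested genes, with a median log2 ratio of 0.27 against -0.0032 over all tested genes. The ends of the list were Foxa2 (3.25, 1.27 to 9.85), a forkhead factor, and Foxp2 (0.360, 0.2003 to 0.623), another forkhead factor. In the untreated mutant 4 of 13 were higher and 4 lower, beside 24% and 26.2% (median -0.03 against -0.04), and Foxp2 was again lowest (0.201, 0.112 to 0.347). In delta cells after Ex-4 in WT 3 of 10 were higher and 3 lower, beside 25.9% and 17.4% (median 0.12 against 0.10), with Rfx3, a factor of the RFX family, lowest (0.379, 0.307 to 0.466). In beta cells after FSK in the mutant 4 of 13 were higher and 4 lower, beside 21.9% and 33.2% of all tested genes, with Rfx3 highest (4.16, 3.67 to 4.73), next to Pbx3 at 4.09. The genes most like Pbx3 over the 24 columns were Tmem164 (r = 0.924), Stard13 (0.922) and Tnik (0.922), with lengths of 162.9, 196.3 and 412.6 kb.

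Across the 7 comparisons in 4 endocrine cell types the members gave 112 pairs, of which 53 had enough counts. Of these 12 were past 1.5-fold higher and 11 lower, where the shares of all tested genes averaged 17.02% and 16.72% over the same 53 comparisons, and 21 of the 23 had intervals that left out 1. Pbx3 gave 12 of the 23 (4 higher, 8 lower, of 28 tested), Irx1 5 of 7 (3 higher, 2 lower), Irx2 4 of 11 (all higher) and Hhex 2 of 7 (1 higher, 1 lower). The 2 whose intervals included 1 were Irx1 in untreated mutant alpha cells and Pbx3 in WT PP cells after FSK.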

How the data were processed

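Nuclei of about 100 islets per sample were sorted on DAPI and barcoded combinatorially. Per the study's methods, reads were aligned by the authors to mm39, who removed nuclei with extreme count or gene numbers or a high mitochondrial share, integrated the rest and named cell types from cluster markers. The annotation release and whether pooled counts were raw or corrected were not given in the sources used here.

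The deposited values are natural log values, ln(1 + 10000 × count / column total), in 54 columns, 1 for each of 9 cell types in 6 conditions, with 17362 genes each. Column totals were recovered as the numbers that make all values whole counts. Within a tolerance of 0.001, 100% came out whole, with 6.39e-05 as the largest deviation, and 0 columns belonged to other samples. Counts were given exact Poisson intervals and ratios exact conditional Clopper-Pearson intervals (95%). A 0 was given an upper limit of 3 counts. A ratio needed at least 20 counts in its pair of columns and was called past 1.5-fold. The depth ran from 38625 to 3094377 counts over the 24 endocrine columns, which bounds precision. The recovery and the ratios were checked on simulated data.

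The 4 members were fixed by name. The lists (TALE genes, alpha and delta cell factors, cell type markers), the 3 genes with the highest correlation (at least 200 counts) and all rules were chosen with earlier results of these data known. Of the lists, counts are given and members with the highest or lowest ratio named. Meis2, Pbx2 and Meis3 in beta cells, and the neighbouring noncoding genes, were named after their values were seen. A listed gene is not reported here and was left out of its list.

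Alternatives were differences of log2(CP10K + 1) at 0.58, a 2-fold threshold, minimums of 100 counts or none, a median ratio set to 1, totals without 15 ribosomal RNA linked and mitochondrial genes, removal of a lowess length trend (span 0.3), unweighted means, omission of PP cells, Spearman's correlation and a minimum of 1000 counts. Coordinates, lengths and upstream windows came from GENCODE M39 on GRCm39, which matched 16531 of the genes once. The software was scipy 1.17.1 and statsmodels 0.14.6 for intervals and trends, pandas 2.3.3 and numpy 2.4.6 for tables, and matplotlib 3.10.9 for plots, under Python 3.11.15.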

Additional observations from a re-analysis of the deposited data

Results flagged for a closer look

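Irx1 in alpha cells was the only member and cell type with ratios past 1.5-fold in opposite directions under the same treatment in the 2 genotypes. After Ex-4 it was 1.90-fold the untreated level in WT (49 against 24 counts) and 0.511-fold in Med14 S983A (37 against 74 counts), with intervals of 1.14 to 3.23 and 0.334 to 0.767. There was 1 column per condition, so the difference between genotypes was not tested, and with the length trend removed the WT ratio was 1.03 and the mutant ratio 0.566.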

How the results depend on the processing

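With 1 pooled column per condition, no replicate could be left out. No paired analysis was possible because the 8 sublibraries each hold all 6 conditions and the columns carry no replicate number. Of the 53 ratios of members that could be tested, 12 were past 1.5-fold higher and 11 lower. These numbers became 5 and 6 on the log2(CP10K + 1) scale, which understates low genes by construction, 7 and 7 at a 2-fold threshold, 6 and 6 of 29 pairs with at least 100 counts, and 27 and 15 of 81 pairs with no minimum. With the length trend removed they were 12 and 14, with 18 of the 23 calls kept, 5 ended and 8 gained. Removing the length trend turned Irx2 in WT alpha cells after Ex-4 to 0.832 and Irx1 in untreated mutant against WT alpha cells to 0.821, moved 14 other ratios beyond their intervals and kept 37 within them. Setting the median ratio to 1 moved 3 of 53, and leaving out ribosomal RNA linked and mitochondrial genes moved 0. The cell type with the highest level of Irx1, Irx2 and Hhex was the same under all 3 alternatives. For Pbx3 the ratio of PP to beta cells went from 1.28 to 1.52 with unweighted means of the conditions, and without PP cells beta was highest at 1.47 times delta. Counts under 100 limit what can be said of Irx1 and Hhex in any cell type, and no endocrine column of Irx1, Irx2 or Hhex outside their own cell type held more than 25 counts.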
